A study of Mus musculus with 8 samples.

Results

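Glutamate receptor subunits were examined in whole-genome bisulfite sequencing data of hippocampal DNA from mice that lack DNA glycosylases. The genes were Gria1, Gria3 and Gria4 (AMPA receptors), Grik2 (kainate receptors), Grin1 and Grin2a (NMDA receptors), and Grm5 and Grm7 (metabotropic receptors). They were selected because the study's tables list called regions of differential methylation in them, so the direction and size of their changes describe that selection and were not tested. All table entries under these 8 gene symbols were taken, which gave 26 of the 9329 entries in the CG, CHG and CHH tables.

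The libraries came from male C57BL/6N mice of 6 months, of 4 genotypes with 2 libraries each. Mutyh-/- mice lack the glycosylase that removes adenine misplaced opposite the oxidised base 8-oxoguanine, and Ogg1-/- mice lack the glycosylase that removes 8-oxoguanine itself. The double knockout, labelled Mutyh-/-xOgg1-/- and called DKO here, was bred by crossing both lines, and wild type (WT) mice of the same strain were the controls. The knockouts are not restricted to a cell type, and the DNA came from the whole hippocampus, so each value averages over its neurons, glia and vessels and a change in cell makeup cannot be told apart from a change within cells. The labels do not tell if both libraries of 1 genotype are from different mice, and their spread may be technical. The question put to the data was how methylation over these receptor genes in each knockout compared with WT.

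Glutamate is the main excitatory transmitter of the hippocampus. AMPA receptors carry the fast synaptic current, kainate receptors modulate transmission on both sides of the synapse, NMDA receptors admit calcium and trigger synaptic plasticity, and metabotropic receptors act through G proteins. In mammals most methylated cytosines are followed by guanine (CG, or CpG), bodies of active genes are usually methylated, and bisulfite conversion does not separate 5-methylcytosine from 5-hydroxymethylcytosine, which is abundant in neurons.

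The sequences under the called regions differed most between Grin1 and the other genes. In the GRCm38 reference the called body of Grin1 spanned 26.0 kb and held 408 CpGs, a density of 15.7 CpGs per kb, with a GC content of 51.5%. The called bodies of the 7 other genes spanned 275 to 919.6 kb, with 4.09 (Grik2) to 7.96 (Gria1) CpGs per kb and a GC content of 35.6 to 44.7%. Exons covered 10.8% of the Grin1 region and held 31.1% of its CpGs. In the other genes exons covered 0.887 to 1.87% of the region and held 1.91 to 5.37% of its CpGs, and which of these CpGs passed the study's filters is not given. Windows of 200 bases are printed to show this contrast, chosen by position and CpG number and not by methylation, with every CpG in capitals. The middle window of the Grin1 region lies partly in a coding exon and holds 12 CpGs, while that of Grm7, the longest gene, lies in an intron and holds 0. The windows with the most CpGs in the X-linked Gria3 (16) and Grm7 (17) are marked as repeats over 100% of their length in the reference, whereas the richest Grin1 window outside untranslated sequence holds 19 CpGs and is 0% repeat.
Grin1, middle, chr2:25305082-25305281, minus strand: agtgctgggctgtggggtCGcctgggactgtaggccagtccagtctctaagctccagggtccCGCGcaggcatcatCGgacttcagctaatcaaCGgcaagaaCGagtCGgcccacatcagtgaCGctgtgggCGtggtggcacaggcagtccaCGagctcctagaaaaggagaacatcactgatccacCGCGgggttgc
Grm7, middle, chr6:111106314-111106513, plus strand: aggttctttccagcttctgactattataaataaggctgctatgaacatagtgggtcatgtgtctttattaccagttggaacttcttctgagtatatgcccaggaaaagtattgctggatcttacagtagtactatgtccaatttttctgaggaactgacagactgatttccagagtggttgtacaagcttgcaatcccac
Gria3, most CpGs, chrX:41482789-41482988, plus strand: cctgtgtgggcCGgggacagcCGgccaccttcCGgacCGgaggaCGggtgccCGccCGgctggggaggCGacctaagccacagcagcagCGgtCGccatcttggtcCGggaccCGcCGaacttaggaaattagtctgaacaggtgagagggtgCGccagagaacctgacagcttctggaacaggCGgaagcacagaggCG
Grm7, most CpGs, chr6:111154067-111154266, plus strand: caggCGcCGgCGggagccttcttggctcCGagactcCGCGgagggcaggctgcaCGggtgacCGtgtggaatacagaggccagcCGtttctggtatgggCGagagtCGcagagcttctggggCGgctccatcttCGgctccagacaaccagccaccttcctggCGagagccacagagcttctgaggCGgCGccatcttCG
CpGs in repeats made up 9.80% of the CpGs of the Grin1 region, against 12.6% (Gria1) to 41.8% (Grm5) in the other genes. Over whole regions the repeat share did not set Grin1 apart. It was 24.4% in Grin1 and 20.1% (Gria1) to 39.7% (Gria4) in the other genes, with Gria1, Gria3 and Grin2a below Grin1. The antisense noncoding gene Grin1os, at chr2:25291258-25298660 on the plus strand, overlaps the Grin1 region. Annotated noncoding genes or pseudogenes also lie in the Gria4, Grik2, Grin2a and Grm5 regions, such as the long noncoding gene Gm46101 on the opposite strand of Gria4. No other gene's called region overlapped any of the 8 gene bodies.

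All 26 entries were CG regions of the gene body, read here as the transcript without the 1 kb next to its start site (TSS) and end site (TES). This reading comes from the coordinates. They matched an annotated transcript in this way in Gria1, Grin1, Grm5 and Grm7, but not in Gria3, Gria4, Grik2 or Grin2a. None of the 26 entries was a CHG or CHH region, and none lay at a TSS or TES. A region was called when the relative ratio, which is the difference of the knockout and WT scores over the average of both, lay beyond 0.1 with the same sign in all 4 pairings of a knockout with a WT library. Levels are given in percent, from deposited medians that run from 1 (0%) to 2 (100%), and each library's level is its mean over its 2 pairings. A gain is a region called higher in the knockout than in WT, and a loss is one called lower. Because a call needs 1 sign in all 4 pairings, it favours library levels that lie apart. Statements below that knockout libraries lay above or below WT libraries therefore describe the calls. Of 24 combinations of gene and knockout, 21 had a called region, of which 19 were gains and 2 were losses, both in Grin1. The weakest pairing of each gained entry had a relative ratio between 0.0997 (Grin2a in Mutyh-/-, from medians rounded in the table) and 0.125. That of each lost entry had a size of 0.101 (Mutyh-/-) or 0.117 (DKO), so these weakest pairings lay close to the threshold. The strongest pairing of each gained entry had a relative ratio of 0.123 to 0.225, and that of each lost entry a size of 0.119 (Mutyh-/-) or 0.142 (DKO). Regions just outside the threshold were not analysed here.

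**Figure D1:**
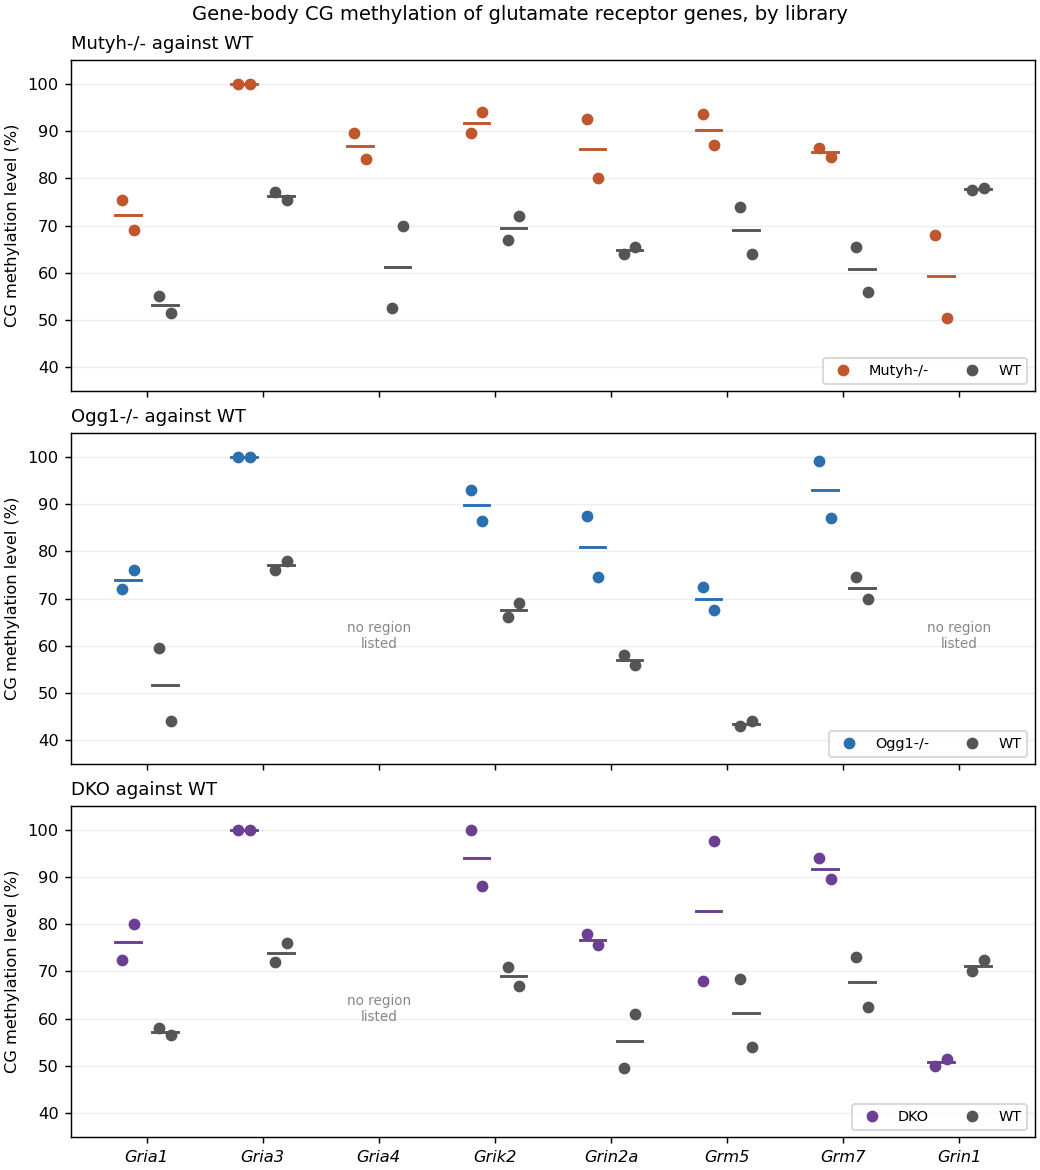
CG methylation level in percent of each gene's longest called gene-body region, by gene, in the comparison of Mutyh-/-, Ogg1-/- and DKO with WT. Coloured points are the 2 knockout libraries, grey points the 2 WT libraries and bars their means. The knockout points lie above the WT points in every region but Grin1, where they lie below, and in Grm5 of DKO, where 68% in a DKO library is under 68.5% in a WT library.

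Gria1 encodes the AMPA subunit GluA1, whose insertion at synapses accompanies long-term potentiation. Its called body at chr11:57012618-57329244 (317 kb, plus strand) was methylated at 75.5 and 69% in the Mutyh-/- libraries and 55 and 51.5% in the WT libraries. In the Ogg1-/- comparison it stood at 72 and 76% in Ogg1-/- against 59.5 and 44% in WT. In the DKO comparison it stood at 72.5 and 80% in DKO against 58 and 56.5% in WT. Both libraries of each knockout were above both WT libraries, by a mean of 19, 22.25 and 19 percentage points in Mutyh-/-, Ogg1-/- and DKO. The gain was among the smaller ones of all called gene bodies in Mutyh-/- (366th of 413) and DKO (457th of 522), and 139th of 423 in Ogg1-/-. A second entry for a transcript that starts further downstream, at chr11:57014046-57329244, was 20 points higher than WT in Ogg1-/- and 19.25 points higher in DKO, and was not called in Mutyh-/-.

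Gria3 encodes the AMPA subunit GluA3 and lies on the X chromosome. Over chrX:41402301-41677601 (275 kb, plus strand) both libraries of all 3 knockouts had a level of 100%, in every pairing. The WT libraries had 77 and 75.5% in the Mutyh-/- comparison, 76 and 78% in the Ogg1-/- comparison and 72 and 76% in the DKO comparison. The difference was therefore set by the WT value alone and came to 23.75, 23 and 26 points in Mutyh-/-, Ogg1-/- and DKO. A level of 100% is the end of the scale, so the median site kept in the region was read as fully methylated and a larger gain could not have been seen. The entry of a shorter transcript, chrX:41402529-41671466, had 100 and 85.5% in Mutyh-/- against 68.5 and 74.5% in WT, 91.5 and 100% in Ogg1-/- against 70 and 75.5% in WT, and 100 and 100% in DKO against 72 and 74% in WT. Its sequence overlaps the longer entry almost in full, and its mean differences were 21.25, 23 and 27 points.

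Gria4 encodes the AMPA subunit GluA4, and in Mutyh-/- it had the largest gain of the 7 gaining genes. At chr9:4418893-4795234 (376 kb, minus strand) the Mutyh-/- libraries had 89.5 and 84% and the WT libraries 52.5 and 70%. Both knockout libraries were higher, by a mean of 25.5 points and by 19 to 31 points in single pairings. In the pairings of WT replicate 1 (52 and 53%) the knockout values were 79 and 78%. In those of WT replicate 2 (69 and 71%) they were 100 and 90%. The gap between the WT levels therefore cannot be told apart from the pairing. No Gria4 region was called in Ogg1-/- or DKO. The tables hold called regions only, so whether Gria4 differed between Mutyh-/- and the other knockouts was not tested.

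Grik2, which encodes the kainate subunit GluK2, had the lowest CpG density of the 8 genes. Its region at chr10:49100463-49787754 (687 kb, minus strand) had 89.5 and 94% in Mutyh-/- against 67 and 72% in WT. It had 93 and 86.5% in Ogg1-/- against 66 and 69% in WT, and 100 and 88% in DKO against 71 and 67% in WT. No knockout library overlapped a WT library, and the mean gains were 22.25 points in each single knockout and 25 points in DKO.

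Grin2a encodes GluN2A, the glutamate-binding NMDA subunit that becomes prominent in the mature forebrain. Over chr16:9578710-9991533 (413 kb, minus strand) the level was 92.5 and 80% in Mutyh-/- against 64 and 65.5% in WT, 87.5 and 74.5% in Ogg1-/- against 58 and 56% in WT, and 78 and 75.5% in DKO against 49.5 and 61% in WT. Knockout libraries were above WT libraries throughout, by a mean of 21.5, 24 and 21.5 points. Single pairings of Mutyh-/- ranged from 17 to 31 points, the widest of these 3 comparisons for this gene.

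Grm5 encodes the metabotropic receptor mGlu5, which couples to phospholipase C. Its region at chr7:87585168-88134063 (549 kb, plus strand) had 93.5 and 87% in Mutyh-/- against 74 and 64% in WT, with a mean gain of 21.25 points. In the Ogg1-/- comparison the level was 72.5 and 67.5% in Ogg1-/- against 43 and 44% in WT, a gain of 26.5 points and the 24th of 423 called gene-body gains by size. The DKO libraries had 68 and 97.5%, against 68.5 and 54% in WT, so the ranges overlapped although each of the 4 pairings showed a gain of 18 to 27 points. This was the only one of the 26 entries in which library levels, each averaged over 2 pairings, overlapped. A call with 1 sign in all 4 pairings favours levels that lie apart, and how often they did among all called regions was not counted. Before averaging, Grm7 in Ogg1-/- also had a knockout value of 78% in 1 pairing below a WT value of 80% in another. In Grin1 of Mutyh-/- a knockout value and a WT value from different pairings were both 69%.

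Grm7, which encodes the presynaptic metabotropic receptor mGlu7 that lowers cyclic AMP, was the longest of the 8 genes. Over chr6:110646598-111566230 (919.6 kb, plus strand) the level was 86.5 and 84.5% in Mutyh-/- against 65.5 and 56% in WT, 99 and 87% in Ogg1-/- against 74.5 and 70% in WT, and 94 and 89.5% in DKO against 73 and 62.5% in WT. The mean gains were 24.75, 20.75 and 24 points. In Mutyh-/- the 4 pairings ran from 18 to 38 points, the widest span of the 8 genes, and with each library left out in turn the mean gain lay between 18.5 and 31 points.

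Grin1 encodes GluN1, the subunit that every NMDA receptor contains, and it was the only one of the 8 genes with a loss. Its region at chr2:25292177-25318187 (26.0 kb, minus strand) had 68 and 50.5% in the Mutyh-/- libraries and 77.5 and 78% in the WT libraries. In the DKO comparison the libraries had 50 and 51.5% in DKO and 70 and 72.5% in WT. Both knockout libraries were below both WT libraries, by a mean of 18.5 points in Mutyh-/- (pairings between -19 and -18) and 20.5 points in DKO (-23 to -19). No Grin1 region was called in Ogg1-/-, and the tables give no level for it there, so a difference between Ogg1-/- and the other knockouts was not tested. In the pairings of Mutyh-/- replicate 1 the level was 67 and 69% in Mutyh-/- against 86 and 87% in WT, and in those of replicate 2 it was 51 and 50% in Mutyh-/- against 69 and 69% in WT. Each Mutyh-/- library kept its level to within 2 points whichever WT library it was set against, while the level of each WT library differed by 17 or 18 points between its pairings. The differences lay within 1 point of each other. Among called gene-body losses by size Grin1 was 408th of 486 in Mutyh-/- and 234th of 426 in DKO.

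**Figure D2:**
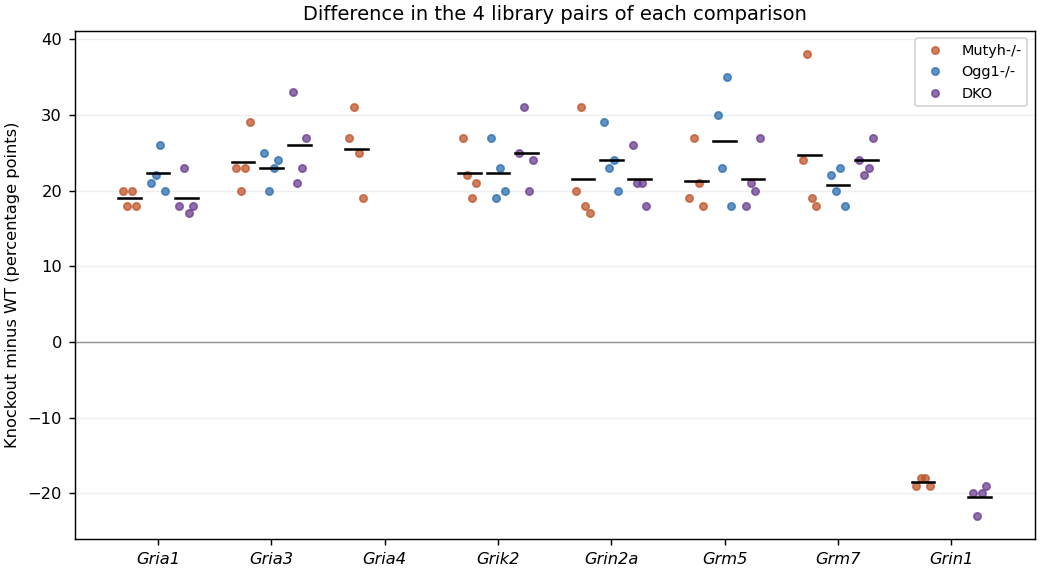
Knockout minus WT difference in percentage points in the 4 pairings of libraries (points) with their mean (black bar), by gene and knockout. Pairings of a knockout share libraries and are not independent. The 7 gaining genes lie between 17 and 38 points, and Grin1 lies between -23 and -18 points in Mutyh-/- and DKO.

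In the Mutyh-/- comparison the mean level of Grin1 was 59.25% ± 12.4 in Mutyh-/- and 77.75% ± 0.354 in WT (SD, n = 2 each). Each WT level averages 2 pairings that lay 17 or 18 points apart, so the small WT SD does not measure the spread of the WT values. The Mutyh-/- SD cannot be told apart from the pairing either, since the WT values were also lower in the pairings of Mutyh-/- replicate 2. The 7 gaining genes there had means of 72.25 to 100% in Mutyh-/- and 53.25 to 76.25% in WT, and in each of the 4 pairings Grin1 was the lowest of the 8 in Mutyh-/-. In WT it was above all 7 in the pairings with Mutyh-/- replicate 1 (86 and 87%), but in those with replicate 2 (69 and 69%) 4 and 3 of the 7 were above it. In the DKO comparison Grin1 averaged 50.75% ± 1.06 in DKO and 71.25% ± 1.77 in WT (SD, n = 2 each). The 6 gaining genes averaged 76.25 to 100% in DKO and 55.25 to 74% in WT. In every pairing Grin1 was the lowest in DKO, and in WT 1 or 2 of the 6 gaining genes were above it. A gain has to leave room below 100% and a loss room above 0%, so the order of the WT levels is partly fixed by the calls. So is the order of the knockout levels, because gains were selected as higher than WT and the Grin1 loss as lower.

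The gains were of like size in the 3 knockouts. In Mutyh-/- the 7 gains had a median of 22.25 points (19 to 25.5), in Ogg1-/- the 6 gains a median of 22.6 points (20.75 to 26.5), and in DKO the 6 gains a median of 22.75 points (19 to 26). All called gene-body gains had medians of 21.5, 21.25 and 21.25 points in Mutyh-/-, Ogg1-/- and DKO. Gria1, Gria3, Grik2, Grin2a, Grm5 and Grm7 were called in all 3 knockouts. These comparisons use the same 2 WT libraries, so a gene's 3 gains are not independent, and differences between knockouts were not tested. In DKO the gain was numerically above both single knockouts for Gria3 and Grik2, between or equal to them for Gria1, Grin2a, Grm5 and Grm7. Of the 76 knockout values behind the 19 gains, 19 stood at 100%, 12 of them in Gria3, and 0 of the 76 WT values did. The 0 was fixed by the calls, since the scale ends at 100% and a WT value there leaves no room for a gain. The share at 100% over all called gains was not counted.

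The WT level of one and the same library changed with the pairing, within a table as well as between tables. Over 14 combinations of gene region and WT library with values in all 3 tables, the 6 values of a library spanned 8 to 38 points, with a median of 14.5. Knockout libraries changed as well. In gained entries a knockout library differed by 0 to 24 points between its 2 pairings (median 3.5), beside 0 to 38 for a WT library (median 6). In lost entries it differed by 0 to 3 points, beside 0 to 18 for a WT library. In Grm5, WT replicate 1 had values from 43 to 75% and WT replicate 2 from 35 to 73%, with both ends of the range of replicate 2 in the DKO table. These Grm5 spans, of 32 and 38 points, exceed the mean gain of Grm5 in each knockout, so levels can be compared within a pairing and not across pairings or tables. The depth behind each value is unknown, because the tables give no coverage.

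**Figure D3:**
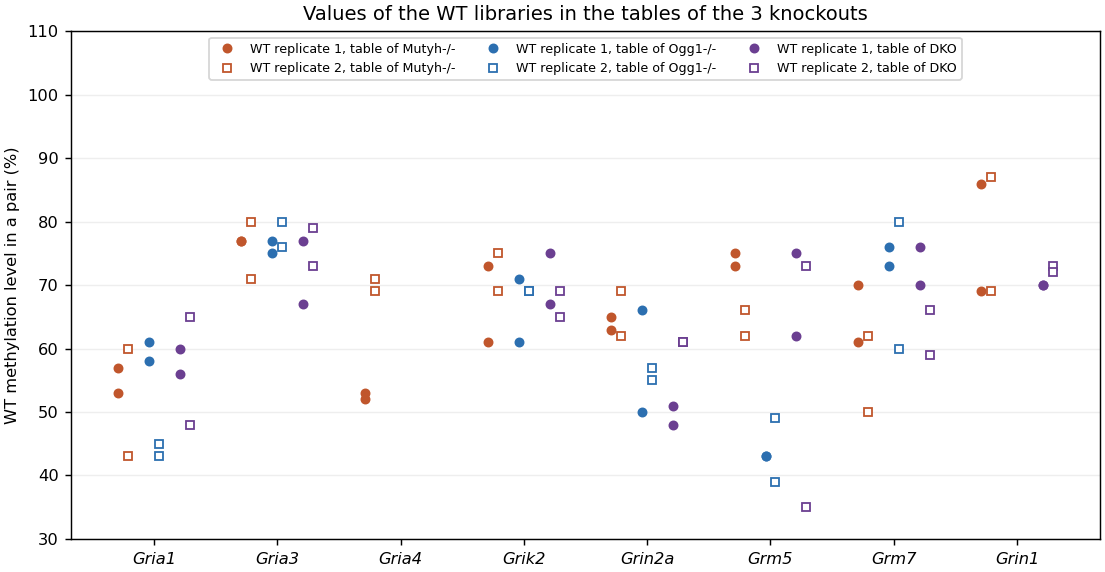
Level in percent of WT replicate 1 (filled circles) and WT replicate 2 (open squares) in each pairing, by gene and by the knockout of the table (colour). Points of 1 library would coincide if its level did not depend on the pairing. In Grm5 they run from 35 to 75%.

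The counts of called genes were read against all annotated genes, since the number of regions tested is not given in the tables. Among 21887 annotated protein-coding genes, a CG gene-body gain was called in 1.83, 1.84 and 2.28% for Mutyh-/-, Ogg1-/- and DKO. Length classes were set after the lengths of the 8 genes were seen. Among the 990 genes of 200 kb or more the shares were 27.3, 26.9 and 33.2%. All 7 gaining genes belong to this class. Nothing is read from the 8 genes' own counts of 7, 6 and 6 gains, which the selection fixed. A CG gene-body loss was called in 2.02, 1.47 and 1.77% of all annotated genes in Mutyh-/-, Ogg1-/- and DKO. Among the 4032 genes of 20 to 40 kb, the class of Grin1, it was called in 1.46, 1.29 and 1.81%.

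Direction went with length across all called gene bodies, and each of the 8 genes lay on the side of its length class. Of called bodies of 200 kb or more, 88.8% were gains in Mutyh-/-, 91.9% in Ogg1-/- and 93.3% in DKO. Of those of 20 to 40 kb, 86.6% were losses in Mutyh-/-, 79.7% in Ogg1-/- and 87.5% in DKO. CpG density differed in the same way. Gained bodies had medians of 6.81, 6.68 and 6.92 CpGs per kb and lost bodies 12.0, 12.8 and 12.0 CpGs per kb in the 3 knockouts. Grin1, at 15.7, was denser than 69.3% of the losses in Mutyh-/- and 66.0% of those in DKO. Grik2, Grm5 and Grm7 were sparse even among gains, with between 0.946 and 4.26% of the called gains sparser than they were. Gria1 was denser than 71.1 to 74.0% of them. Gained bodies had median lengths of 317, 305 and 293 kb and lost bodies 35.4, 28.4 and 25.8 kb in the 3 knockouts, and the part of length and CpG density in the direction of the calls was not tested.

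**Figure D4:**
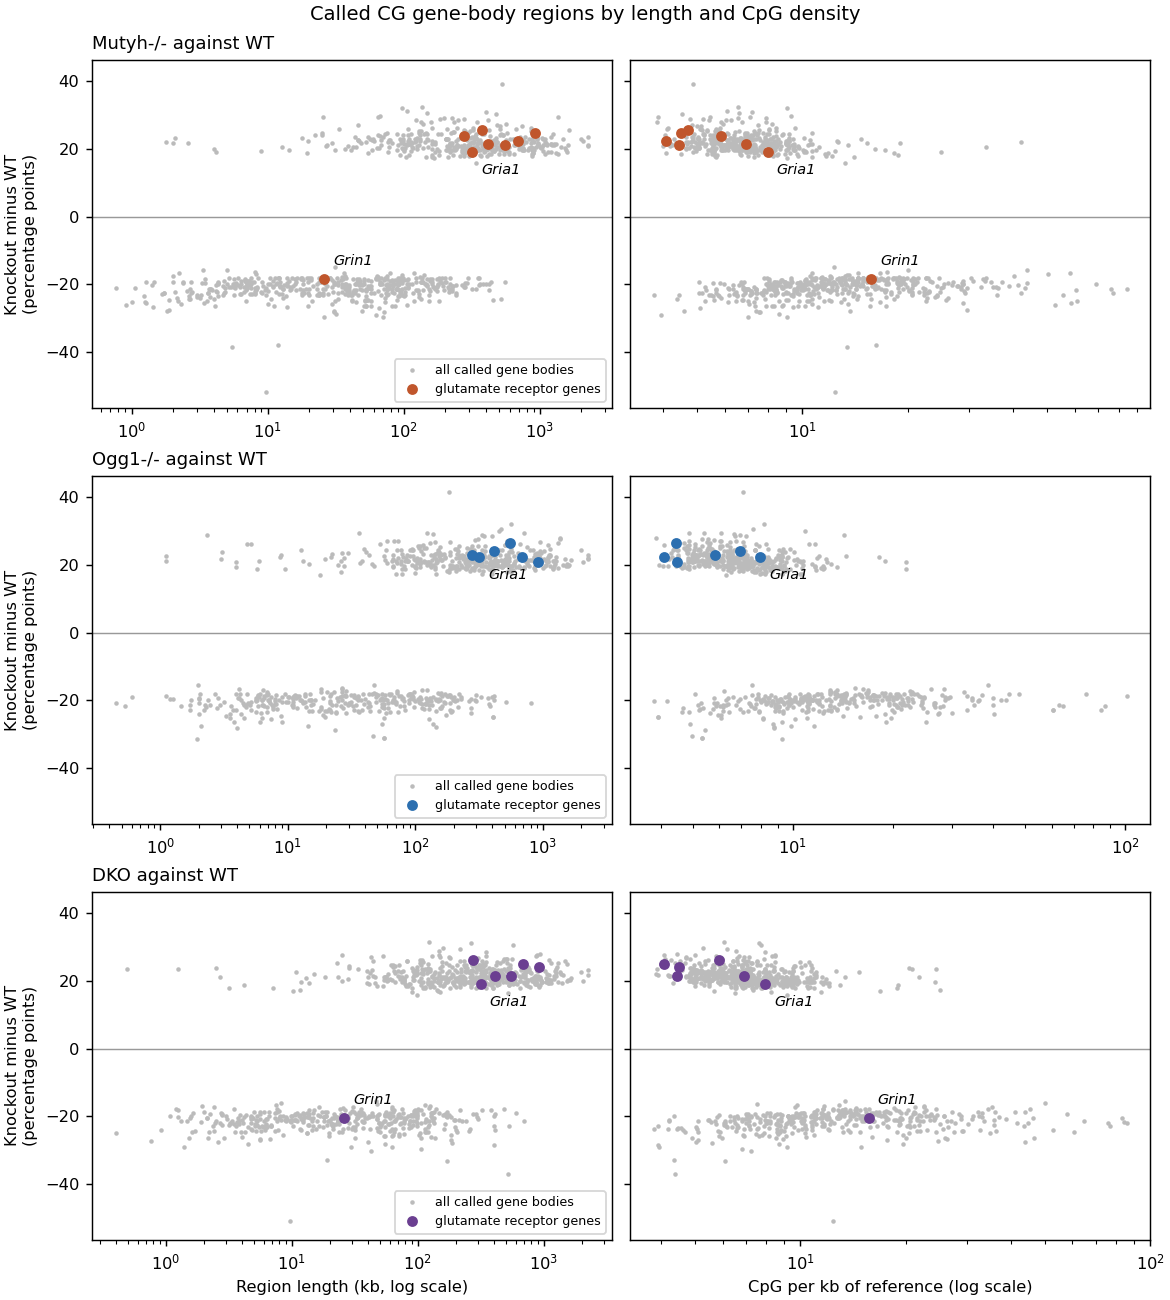
Difference between knockout and WT in percentage points for all called CG gene bodies (grey) and the glutamate receptor genes (coloured), against region length in kb (left, log axis) and CpGs per kb of reference (right, log axis), for Mutyh-/-, Ogg1-/- and DKO from top to bottom. Called differences leave a gap around 0 by construction. Gains gather at long regions with few CpGs, where 7 of the genes lie, and Grin1 lies among the shorter losses at 15.7 CpGs per kb.

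The wider receptor family was counted from a list of all 26 mouse AMPA, kainate, NMDA, delta and metabotropic glutamate receptor genes, of which 17 had any called region. For Mutyh-/-, Ogg1-/- and DKO, CG gains were called in 10, 9 and 11 of the 26 and CG losses in 2, 1 and 1, with the selected genes among them, beside the 1.83, 1.84 and 2.28% of all genes with a gene-body gain given above. The family holds many long genes. Its 16 genes of 200 kb or more include 7 selected here for their calls, and 9, 8 and 11 of the 16 had a gain. Among the 9 that were not selected, 2, 2 and 5 had a gain (22.2, 22.2 and 55.6%). Of all genes of that length 27.3, 26.9 and 33.2% had one, and no difference is read from these counts. Counting the TSS and TES as well as the body, CG gains were called in 2.19, 2.1 and 2.62% and CG losses in 4.17, 3.21 and 3.8% of annotated protein-coding genes. All 4 AMPA subunit genes had a gain in Mutyh-/-, 3 in Ogg1-/- and 2 in DKO. Gria2, the subunit that limits calcium entry and at 123 kb the only gaining receptor gene under 200 kb, had 66.5 and 83% in Mutyh-/- against 55 and 54% in WT, and 68.5 and 83.5% in Ogg1-/- against 59 and 51% in WT. Among the NMDA subunits, Grin2b (GluN2B) gained with 79.5 and 72.5% in Mutyh-/- against 54.5 and 58% in WT, and 77.5 and 72.5% in DKO against 54 and 50.5% in WT. Grin2c, Grin2d, Grin3a and Grin3b had no called region, nor did Grik3 and Grik5 among the kainate genes or Grm2, Grm3 and Grm6 among the metabotropic genes.

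Gains outside the 8 genes were also called in Grik1 in Mutyh-/- (19.25 points), in Grm8 in Ogg1-/- and DKO (21.25 and 21 points) and in Grid1 in DKO (23.5 points). Grid1 had 83 and 75.5% in DKO against 38 and 73.5% in WT. Its WT levels lay far apart while single pairings gave gains of 19 to 32 points, so the WT gap cannot be told apart from the pairing.

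Losses outside Grin1 were called in Grik4, a kainate subunit gene, in Mutyh-/- and in Grm4, a presynaptic metabotropic receptor gene, in Ogg1-/-. Grik4 spans 427 kb and had 61.5 and 51.5% in Mutyh-/- against 85.5 and 67% in WT, so a long receptor gene was also called as a loss. The Grm4 loss lay at its TES, with 42 and 33% in Ogg1-/- against 53.5 and 55% in WT. In the CHH context 0 of the 8 genes had a called region, beside CHH losses in 5.47, 7 and 3.09% of annotated protein-coding genes in Mutyh-/-, Ogg1-/- and DKO. Among the other receptor genes CHH losses were called in Grm4 and Grm8 in Mutyh-/-, in Grik4 and Grm4 in Ogg1-/-, and in Grid1 in DKO. Grid1 in DKO carried a CG gain and a CHH loss over the same body, where CHH stood at 26 and 21.5% in DKO against 42 and 40.5% in WT.

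Receptor partners had calls in both directions, counted over body, TSS and TES as in the shares of 2.19, 2.1 and 2.62% for gains and 4.17, 3.21 and 3.8% for losses over all genes. Of 16 auxiliary subunit genes, CG gains were called in 2, 1 and 1 and CG losses in 1, 1 and 1 in Mutyh-/-, Ogg1-/- and DKO. Shisa6, an AMPA receptor auxiliary protein, had the largest gain of that list, with 90 and 80.5% in Ogg1-/- against 66.5 and 60.5% in WT. The largest drop was the CHH loss of Shisa9 in DKO, with 24 and 25% in DKO against 33 and 80% in WT. The WT levels lay far apart there, which cannot be told apart from the pairing, and single pairings ran from -49 to -16 points. Of 11 transporter and synthesis genes, 1, 2 and 1 had CG gains and 2, 2 and 1 had CG losses. Slc7a11, the cystine and glutamate exchanger, had both extremes of this list, a TSS gain in Ogg1-/- (79.5 and 75.5% against 54 and 50% in WT) and a CHH loss in DKO (37.5 and 32.5% against 69.5 and 55% in WT).

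Of 18 scaffold genes, 4, 6 and 5 had CG gains and 1, 1 and 0 had CG losses in Mutyh-/-, Ogg1-/- and DKO. Of the 6 scaffold genes with a gain, Dlg1, Dlg2, Dlgap1, Dlgap2 and Shank2 had a called body of over 200 kb, a length at which 27.3, 26.9 and 33.2% of all genes had a gain, and Homer1 had a shorter one. Dlg2, which encodes the postsynaptic scaffold PSD-93, had the largest gain, over an entry of 384853 bp with 81.5 and 100% in DKO against 54.5 and 62% in WT. The largest drop was the CHH loss of Grip1, an AMPA receptor binding scaffold, with 28 and 27.5% in Ogg1-/- against 47.5 and 58.5% in WT. Dlg4, which encodes PSD-95, had no called region.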

How the data were processed

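Whole-genome bisulfite libraries of the hippocampus (8 libraries, 4 genotypes) were assigned to groups from the labelled genotype. Per the study's methods and the submitters' processing notes, reads were checked with FastQC and aligned to GRCm38 with Bismark 0.22.3, and cytosines with a coverage under 4 were removed. The authors called regions with HMST-Seq-Analyzer by a Wilcoxon rank-sum test over cytosines, for each of 4 knockout and WT pairings, at the TSS and TES (± 1 kb) and in the gene body, with at least 3 methylated sites at the TSS or TES, 5 in the body and at most 200 bp between adjacent sites. Regions beyond a relative ratio of 0.1 in all 4 pairings were kept, so the tables hold called regions only.

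The deposited medians are a score from 1 to 2, made by the authors per region and pairing. The score was read as 1 plus the methylated fraction. This reading comes from the values and is not stated in the sources used here. Percent levels, differences and relative ratios were computed from it with Python 3.11.15, pandas 2.3.3 and numpy 2.4.6, and figures with matplotlib 3.10.9. Deposited columns of relative ratios and p-values hold the authors' own comparisons and were not used. The DKO CHG table held no region. Depth per region is unknown, so no interval was computed.

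No test was run, because 2 libraries against 2 cannot give a two-sided exact p under 0.333 and the regions had been selected on these values. CpG, GC, repeat and exon content were read from the GRCm38 reference and its RefSeq annotation, with starts written 1-based. Shares of called genes use the 4425 of 4901 table symbols that matched a RefSeq protein-coding gene. The members and gene lists were chosen with earlier results of these data known. All members and all receptor genes with a called region were named, except items that are not reported here, and in each other list the entry with the largest mean change up and down. Dlg4 and the CHH values of Grid1 were singled out after the values were seen. Alternatives were single pairings, leaving out each library, same-numbered or crossed pairings, a relative ratio of 0.15 and counting each distinct region once.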

Additional observations from a re-analysis of the deposited data

How the results depend on the processing

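A region was called only with 1 sign and a relative ratio beyond 0.1 in all 4 pairings. The 26 differences therefore could not change direction or become small under choices of pairings. The ranges below describe their sizes within that limit and do not test them. Leaving out each library in turn, the median gain lay between 19.5 and 24.5 points in Mutyh-/-, 20.75 and 24.5 in Ogg1-/-, and 22.75 and 24 in DKO, and the Grin1 difference stayed at -18.5 points in Mutyh-/- and between -21.5 and -19.5 in DKO. The smallest pairing gave a median gain of 18 in Mutyh-/-, 19.5 in Ogg1-/- and 19 in DKO, the largest gave 29, 26.5 and 27, and the largest for Grin1 in DKO gave -23. At a relative ratio beyond 0.15 in all 4 pairings 0 gained entries (of 8 each in Mutyh-/-, Ogg1-/- and DKO) and 0 lost entries (of 1 each in Mutyh-/- and DKO) were left. With 0.15 in at least 1 pairing, an alternative chosen after seeing the data, the gained entries left numbered 6 (Mutyh-/-), 2 (Ogg1-/-) and 5 (DKO), and the lost ones 0. Counting each distinct region once changed no count. Counts cannot change when a library is left out, since regions that were not called are not listed. The planned limit on the deposited p-values was not run, because those columns hold the authors' comparisons. No paired analysis was possible because the results come from no test, the regions having been selected on these values. Same-numbered pairings alone, which are not stated to share a litter or batch, gave median gains of 21, 23.75 and 23.5 points for Mutyh-/-, Ogg1-/- and DKO.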
